A study of Mus musculus with 15 samples.

Results

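RNA levels of 35 genes of purine and pyrimidine nucleotide synthesis were followed through the formation and early regression of MYC-driven liver tumours in mice. The genes were chosen by name, with earlier results of these data known. Of the 35, 33 were found under their symbol in the deposited table (Hprt as Hprt1), and Dctpp1 and Cmpk1 were found after older symbols were updated. All 35 were among the 19207 genes that passed the filter on dim probes. Atic, an enzyme of purine synthesis, passed only through its signal on the tumor arrays, and the other 34 also passed without those arrays. By role, the list holds 10 enzymes of de novo purine synthesis, 4 of de novo pyrimidine synthesis, 2 synthases of the shared ribose donor PRPP, 5 genes of deoxynucleotide supply, 8 salvage enzymes, 5 nucleotide kinases and Samhd1, which breaks down deoxynucleotides.

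The mice, of the inbred laboratory strain FVB/N, all carried LAP-tTA, which makes a doxycycline-repressed activator in liver cells. The 3 control livers came from mice with LAP-tTA alone. The other mice were TRE-MYC x LAP-tTA double transgenics, in which MYC is made in the liver when doxycycline is absent. Chow with 200 mg/kg doxycycline was fed up to an age of over 8 weeks and then taken away. The 4 pre-tumor livers were collected 4 to 5 weeks later and held no tumor, and the 4 tumor nodules were collected after 8 to 9 weeks. The 4 regression samples came from mice that had been off doxycycline for 8 to 9 weeks and then back on it for 72 hours. The labels give the controls no time off doxycycline and leave it unsaid whether the arrays are of different animals, so the p values measure the spread between these arrays. Tumour tissue and whole liver differ in their mix of cells, and in such bulk samples fewer cells of a type and less RNA per cell cannot be told apart.

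Cells obtain nucleotides by 2 routes. De novo synthesis builds the purine ring on PRPP from amino acids and one-carbon units, and the pyrimidine ring from glutamine, bicarbonate and aspartate. Salvage enzymes rejoin free bases to PRPP or phosphorylate nucleosides. Ribonucleotide reductase and thymidylate synthase then provide the DNA precursors. The liver is known for high capacity in both synthesis and breakdown of purines, and several genes of these routes are textbook targets of MYC, which binds with MAX to the E-box sequence CACGTG.

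That sequence was looked for in the RefSeq promoter windows (GRCm38.p6, from 250 bases before to 50 bases after each start), in which 33 of the 35 genes had an entry. Since CACGTG reads the same on both strands, 1 search covers both, and no other motif was searched. It stood in the windows of 6 of the 33 genes (18.2%), against 8.09% of the 27025 genes with a window and 7.15% of all 32851 windows. Of the de novo enzymes 3 of 12 held it and of the salvage enzymes 0 of 8. The matches are given here with 12 bases on either side, the E-box in capitals, each read 5′ to 3′ on the strand of its gene, because they are the members in which the binding letters of the driving factor lie next to the start. A match is a description of letters and not a measured binding site.
Atic: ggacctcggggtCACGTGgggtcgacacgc
Impdh2: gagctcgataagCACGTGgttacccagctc
Paics: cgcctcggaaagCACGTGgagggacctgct
Tyms: aaccacttctgtCACGTGggggcggggtct
Dtymk: gtctcgaacttcCACGTGaccagagcctgc
Nme1: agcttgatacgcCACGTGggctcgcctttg
Nme1 (upstream start): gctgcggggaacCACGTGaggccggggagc
In Atic the window lies at chr1:71557137-71557166 on the plus strand, and the first base of the motif is 7 bases before the start. The Impdh2 window (chr9:108560314-108560343, plus strand) has it 110 bases before the start and the Paics window (chr5:76951087-76951116, plus strand) 203 bases before. In Tyms (chr5:30073669-30073698, minus strand) the distance is 61 bases and in Dtymk (chr1:93802065-93802094, minus strand) 148 bases. Nme1 has the motif before both of its annotated starts, at chr11:93968037-93968066 and chr11:93968273-93968302 on the minus strand, 29 and 18 bases away. Ppat and Paics, the first enzyme of purine synthesis and a later one, are neighbours on chromosome 5 that are read in opposite directions, with annotated starts 276 bases apart. The annotated genes overlap between these starts.

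Levels are given as log2 of the background-subtracted Cy3 signal relative to the 75th percentile of the same array, so 0 is the level of a probe at that percentile. They compare arrays for 1 gene and not genes with each other. A change is the log2 difference between group means with its SE from the limma model, and a gene was called when its limma p, adjusted by Benjamini-Hochberg over all 19207 genes, was under 0.05. Each array had 43379 gene spots, of which 46.4% (tumor 3) to 90.8% (pre-tumor 4) were well above background, with a median processed signal of 6.78 to 71.3 intensity units. The number of arrays limits the precision. No probe of the 35 genes was saturated. Of 7 measured hepatocyte markers, 6 were lower in tumor than in control. The median change of all genes was -0.18 (tumor) and -0.03 (pre-tumor) relative to control, -0.13 for tumor relative to pre-tumor, and for regression -0.11 relative to tumor and -0.23 relative to control. Whether a probe lies in a coding exon or a UTR was not looked up. The arrays came from 4 slides, each with at most 1 array of a group.

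The array has 3 probes for Myc, and they did not move alike. One rose in tumor against control by 5.16 ± 0.54 (adjusted p = 9.83e-06 over probes) and was lower in regression than in tumor, at -4.64 ± 0.50 (adjusted p = 3.83e-05). In pre-tumor against control it differed by 2.07 ± 0.54 (adjusted p = 1 over probes). The brightest Myc probe differed by -1.10 ± 0.47 in tumor against control (adjusted p = 0.141) and by 0.69 ± 0.43 in regression against tumor (adjusted p = 0.394). The dimmest differed by -1.18 ± 0.46 in tumor against control (adjusted p = 0.102) and was higher in regression than in tumor by 1.65 ± 0.42 (adjusted p = 0.0144). Which of these probes reads the transgene was not tested.

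**Figure D1:**
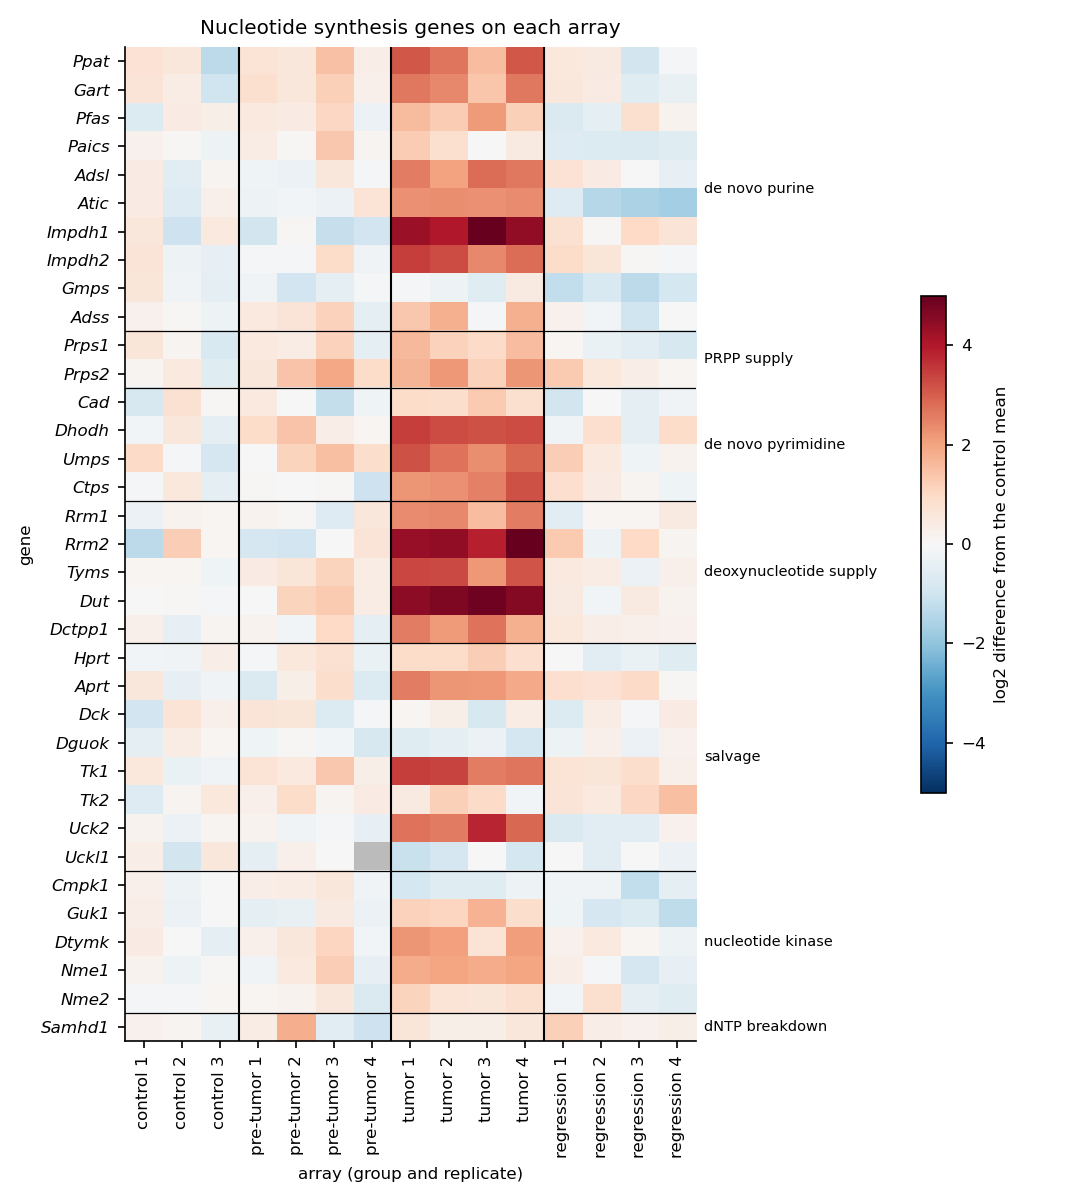
Level of each of the 35 genes (rows, ordered by role) on each of the 15 arrays (columns), as the log2 difference from the mean of the 3 control arrays. Red is higher and blue lower, and grey is a spot left out as an outlier. The 4 tumor columns stand out in the de novo and deoxynucleotide blocks, while pre-tumor and regression columns stay close to control in most rows.

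In tumor nodules 23 of the 35 genes rose against control liver and 0 fell, with a median change over the 35 of 1.91. Over all genes 9.42% were called higher and 7% lower. Without Atic, which passed the filter only through the tumor arrays, 22 of 34 rose (median 1.86). The 23 were 7 of 10 enzymes of de novo purine synthesis, 3 of 4 of de novo pyrimidine synthesis, both PRPP synthases, 5 of 5 genes of deoxynucleotide supply, 3 of 8 salvage enzymes and 3 of 5 nucleotide kinases. Samhd1 was not called. Against pre-tumor liver 21 rose and 0 fell (median 1.56), where 10% of all genes were called higher and 9.24% lower. After 72 hours of doxycycline 27 were lower than in tumor and 0 higher (median -1.95), against 8.28% and 8.54% of all genes. These comparisons share their tumor arrays, and the counts of 21 and 27 include Atic, whose difference from tumor follows from its entry through the tumor arrays. The size of many changes depended on how background was treated. With background correction by normexp and quantile normalization, 45 of the 72 called changes of single genes over all comparisons were smaller by more than 1.5 times, and 42 of these 45 were still called. In the authors' deposited values 18 of the 72 were smaller by that much, and 16 of these 18 were still called. Values under these alternatives stand beside only some of the genes concerned. With normexp Gart was at 1.47, Adsl at 1.64 and Pfas at 0.96 in tumor against control. In regression against tumor Hprt was at -0.87 and Adss at -0.63 with it.

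**Figure D2:**
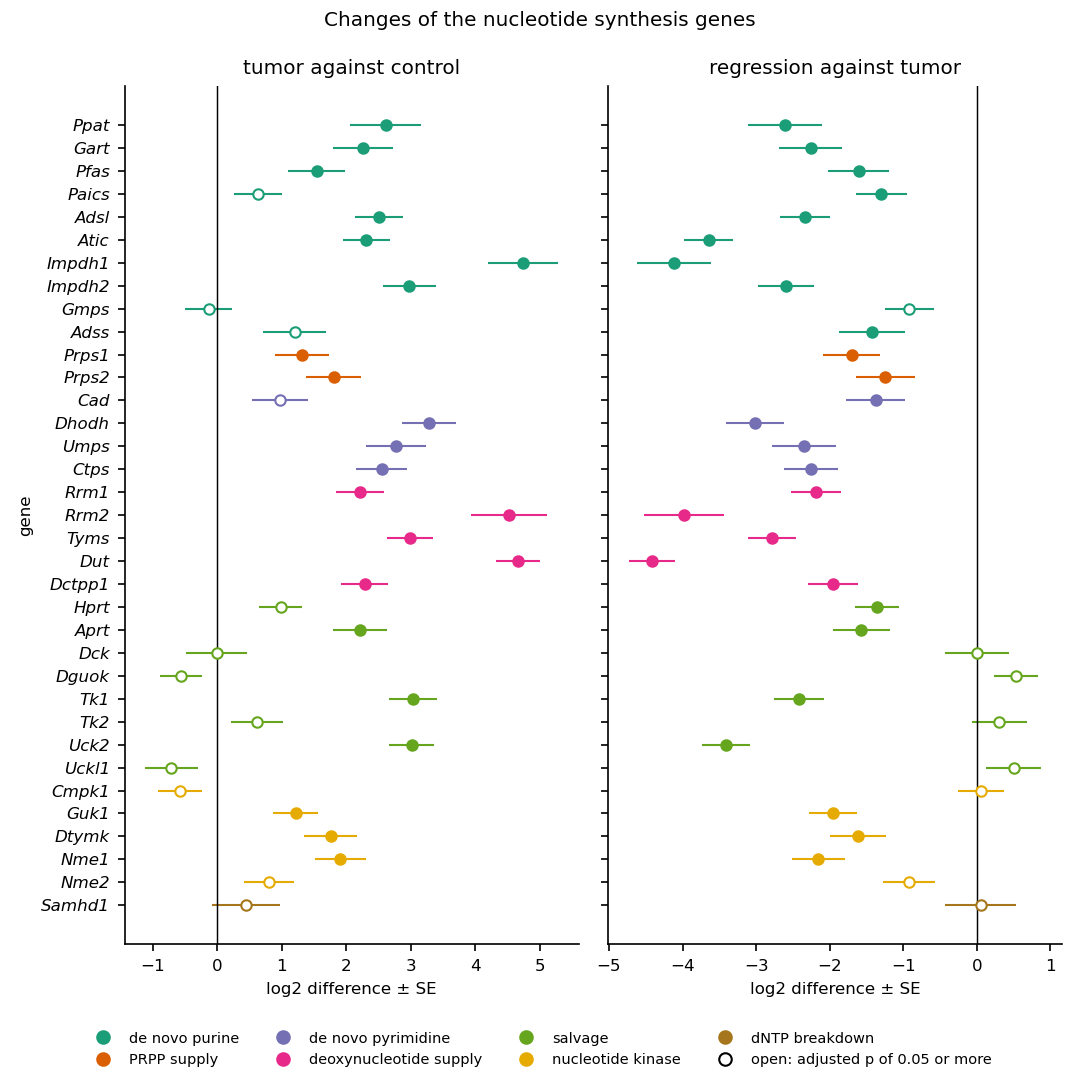
Log2 change with its SE (bars) for each of the 35 genes in tumor against control (left, 4 against 3 arrays) and in regression against tumor (right, 4 against 4 arrays), coloured by role. Filled points are called. Filled points lie to the right of 0 on the left (23 genes) and to the left of 0 on the right (27 genes), and both panels share the tumor arrays.

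Among the enzymes that build the purine ring, Ppat, which commits PRPP to the pathway, rose in tumor against control by 2.61 ± 0.54 (adjusted p = 0.00308), which was 1.59 with normexp and 1.68 as the mean of its passing probes. Gart, a protein with 3 of the pathway's activities, rose by 2.25 ± 0.46, and Adsl, which acts both in the ring pathway and in AMP synthesis, by 2.51 ± 0.37. Pfas, the enzyme of the fourth step, rose by 1.54 ± 0.44 (adjusted p = 0.0254). Its call ended when control 1, tumor 1 or tumor 3 was left out (changes of 1.19 to 1.53, adjusted p = 0.0601 to 0.127), and its other passing probe rose by 3.57 ± 0.40. Paics, a bifunctional enzyme of the middle steps, differed by 0.64 ± 0.37 (adjusted p = 0.282), and its second probe by 0.59 ± 0.45. The second probe of its neighbour Ppat, well above background on 7 of 15 arrays, differed by 0.76 ± 0.85 (adjusted p = 0.619). Whether Ppat and Paics changed by different amounts was not tested.

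Atic, which closes the ring to make IMP, was near or below the detection limit outside the tumours. It was well above background on 4 of 4 tumor arrays, 1 of 4 pre-tumor arrays, 0 of 3 control arrays and 0 of 4 regression arrays. Its measured level (probe at chr1:71512316-71512375, mm9) was -3.45, -4.48 and -3.61 in the controls, at -4.10, -3.98, -4.15 and -3.19 in pre-tumor liver, at -1.56, -1.54, -1.58 and -1.48 in the nodules and at -4.48, -5.27, -5.45 and -5.54 in regression. The tumor arrays were the highest and did not overlap any other group. Against the lowest signal that counts as well above background, Atic was 2.49-fold higher in tumor than in control. It was 3.72-fold lower in regression than in tumor. Both folds hold on this scale only and are not lower bounds under other treatments of background. Its measured changes of 2.31 and -3.65 were called in both comparisons, but a gene that enters only through its tumor signal had to differ. With normexp they were 0.38 and -0.36, and in the authors' deposited values 0.63 and -0.80. Here the bright group's mean is set against the dim group's mean of, per array, the lowest signal among probes well above background or the probe's own where that was higher.

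After IMP the pathway splits toward guanine and adenine nucleotides, and both genes of the first guanine step rose. Impdh1 and Impdh2 encode the 2 isozymes of IMP dehydrogenase, the rate-limiting step toward GMP. Impdh1 (probe at chr6:29150452-29150511, mm9) stood at -2.48, -4.07 and -2.53 in control, at -3.93, -2.96, -4.19 and -3.99 in pre-tumor, at 1.27, 0.97, 3.21 and 1.39 in tumor and at -2.26, -2.98, -2.02 and -2.37 in regression. Every tumor array was above every other array, and tumor 3 was the highest. The change was 4.74 ± 0.54 against control (adjusted p = 1.49e-05), 5.48 ± 0.50 against pre-tumor (adjusted p = 1.09e-06) and -4.12 ± 0.50 in regression against tumor (adjusted p = 6.85e-05). The probe was well above background on 1 of 3 control and 1 of 4 pre-tumor arrays, so the fitted folds rest on signal near background there. With normexp the 3 changes were 1.63, 1.64 and -1.50, and in the authors' deposited values 2.72, 2.87 and -2.46, and each was still called.

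Impdh2 (probe at chr9:108422784-108422838, mm9) stood at 0.97, 0.07 and -0.09 in control, at 0.26, 0.22, 1.23 and 0.12 in pre-tumor, at 3.78, 3.56, 2.72 and 3.12 in tumor and at 1.24, 0.91, 0.40 and 0.27 in regression. It was well above background on all 15 arrays, and again the tumor arrays did not overlap the others. It rose by 2.98 ± 0.41 in tumor against control (adjusted p = 8.15e-05), with a second probe at 3.17, and fell by 2.59 ± 0.38 in regression. Gmps, which makes GMP from the product of IMP dehydrogenase, differed by -0.13 ± 0.36 in tumor against control on its brightest probe (adjusted p = 0.855), while its other 2 probes were at 1.26 ± 0.40 (adjusted p = 0.0465 over probes) and 1.12 ± 0.39 (adjusted p = 0.0718). Adss, of the adenine branch, differed by 1.20 ± 0.49 (adjusted p = 0.111), and tumor 3, at -0.64, lay among the controls.

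PRPP, the ribose donor for both routes, is made by Prps1 and Prps2. Prps1 (probe at chrX:135820200-135820259, mm9) stood at 2.87, 2.39 and 1.51 in control, at 2.77, 2.63, 3.41 and 1.77 in pre-tumor, at 3.87, 3.39, 3.23 and 3.81 in tumor and at 2.35, 1.94, 1.75 and 1.48 in regression. It rose by 1.32 ± 0.42 in tumor against control (adjusted p = 0.0407), a call that ended without any 1 of 9 arrays (adjusted p = 0.0518 to 0.196), namely control 2 or 3, pre-tumor 1 or 2, tumor 1, 2 or 4 and regression 2 or 3. With slide as a block the change was 1.27 (adjusted p = 0.098), also not called. It fell by 1.70 ± 0.39 in regression (adjusted p = 0.00616). Both of its probes moved alike, at 1.32 and 1.33 in tumor against control.

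Prps2 (probe at chrX:162692664-162692723, mm9) stood at -3.68, -3.31 and -4.42 in control, at -3.22, -2.38, -1.88 and -2.88 in pre-tumor, at -2.10, -1.64, -2.65 and -1.58 in tumor and at -2.50, -3.26, -3.47 and -3.72 in regression. The pre-tumor arrays overlapped with tumor and lay above control. Against the lowest signal that counts as well above background, it was 1.82-fold higher in tumor than in control, on this scale only. With 0 of 3 control and 3 of 4 tumor arrays well above background, its measured change was 1.81 ± 0.43 (adjusted p = 0.00759), which was called. This call ended without control 3 (1.50, adjusted p = 0.0518) and with normexp (0.22, adjusted p = 0.0848). Between tumor and pre-tumor it differed by 0.60 ± 0.40 (adjusted p = 0.356). Its fall in regression, by 1.24 ± 0.40 (adjusted p = 0.0413), ended without any 1 of 7 arrays (adjusted p = 0.0513 to 0.121), namely pre-tumor 2, tumor 1, 2 or 4 and regression 2, 3 or 4, and regression 1 overlapped with tumor. It also ended with slide as a block (adjusted p = 0.0722), with normexp (-0.18, adjusted p = 0.12) and in the authors' deposited values (-0.40, adjusted p = 0.142).

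Pyrimidines begin with Cad, a fused protein of the first 3 enzymes, and 3 of its 4 probes rose in tumor against control. The brightest probe, which stands for the gene here, differed by 0.98 ± 0.43 (adjusted p = 0.148), while the other 3 were at 2.16 ± 0.32, 2.30 ± 0.37 and 2.58 ± 0.49 (adjusted p = 0.000226 to 0.0018 over probes). The brightest probe rose against pre-tumor by 1.20 ± 0.40 (adjusted p = 0.0471) and fell in regression by 1.37 ± 0.40 (adjusted p = 0.0263). The first of these calls ended without any 1 of 11 arrays (adjusted p = 0.0571 to 0.122), which were control 3, pre-tumor 2, 3 or 4, each tumor array and regression 2, 3 or 4. The second ended without any 1 of 5, namely tumor 1, 2 or 3 and regression 1 or 3 (adjusted p = 0.0519 to 0.0808). Slide as a block ended both (adjusted p = 0.0923 and 0.0596).

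The later pyrimidine enzymes all rose in tumours. Dhodh, the mitochondrial enzyme that links the pathway to the respiratory chain (probe at chr8:112482694-112482753, mm9), stood at -3.13, -2.43 and -3.45 in control, at -2.09, -1.59, -2.66 and -2.92 in pre-tumor, at 0.44, 0.25, 0.18 and 0.24 in tumor and at -3.19, -2.18, -3.51 and -2.10 in regression. The 4 tumor arrays lay close to each other and well apart from the rest. The rise was 3.28 ± 0.42 against control (adjusted p = 5.04e-05), with 1 of 3 control arrays well above background, and the fall in regression 3.02 ± 0.39. With normexp these were 0.86 and -0.78, and in the authors' deposited values 1.65 and -1.47. Umps, which makes UMP, rose by 2.77 ± 0.47, and Ctps, which makes CTP from UTP, by 2.55 ± 0.40. With normexp both changes were 1.31. Of 3 Umps probes 2 were called, and the remaining probe, well above background on 5 of 15 arrays, was at -0.35 ± 0.56.

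Genes of deoxynucleotide supply all rose in tumor against control, by 2.21 to 4.66. Dut removes dUTP and gives dUMP, the substrate of thymidylate synthase. It (probe at chr2:124949064-124949123, mm9) stood at -1.40, -1.35 and -1.54 in control, at -1.39, -0.31, -0.12 and -1.07 in pre-tumor, at 3.04, 3.25, 3.44 and 3.18 in tumor and at -0.96, -1.58, -0.98 and -1.24 in regression. No tumor array came near another group. The change was 4.66 ± 0.34 against control (25.2-fold, adjusted p = 2.42e-07), 3.95 ± 0.32 against pre-tumor and -4.42 ± 0.32 in regression against tumor (adjusted p = 1.81e-06). A second Dut probe rose by 4.53. With normexp the 3 changes were 2.67, 2.52 and -2.57.

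Rrm2, the regulated small subunit of ribonucleotide reductase (probe at chr12:25302833-25302889, mm9), stood at -4.97, -2.44 and -3.57 in control, at -4.48, -4.61, -3.67 and -3.01 in pre-tumor, at 0.71, 0.78, 0.23 and 1.72 in tumor and at -2.36, -3.93, -2.68 and -3.50 in regression. The tumor arrays were the only ones above 0. The rise was 4.52 ± 0.59 against control (adjusted p = 5.46e-05), where 1 of 3 arrays was well above background, and 4.80 ± 0.55 against pre-tumor, and the fall in regression was 3.98 ± 0.55. With normexp the 3 changes were 1.12, 1.19 and -1.12, and in the authors' deposited values 2.17, 2.27 and -2.01. The large subunit, Rrm1, rose by 2.21 ± 0.37 (0.76 with normexp).

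Tyms, which makes dTMP (probe at chr5:30391872-30392765, mm9), stood at -1.45, -1.45 and -1.76 in control, at -1.13, -0.96, -0.42 and -1.17 in pre-tumor, at 1.78, 1.75, 0.64 and 1.58 in tumor and at -1.07, -1.18, -1.86 and -1.28 in regression. Tumor 3 was the lowest of its group and still above all other groups. The rise was 2.99 ± 0.35 against control (adjusted p = 2.01e-05), which was 1.26 with normexp and 1.93 as the mean of its passing probes. Of its other 2 probes 1 rose by 3.02 and 1 differed by -0.20 ± 0.50. Dctpp1, which clears dCTP and modified deoxynucleotides, rose by 2.28 ± 0.37. Samhd1, which degrades dNTPs and limits their pools in resting cells, differed by 0.45 ± 0.52 in tumor against control (adjusted p = 0.63) and by 0.05 ± 0.48 in regression against tumor (adjusted p = 0.976).

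Salvage enzymes split into a few that rose and a larger number that were not called. Tk1, the thymidine kinase of dividing cells (probe at chr11:117631881-117631940, mm9), stood at 0.27, -0.61 and -0.44 in control, at 0.41, 0.24, 1.08 and 0.03 in pre-tumor, at 3.21, 3.13, 2.31 and 2.42 in tumor and at 0.42, 0.36, 0.63 and 0.01 in regression. It rose by 3.03 ± 0.36 against control (adjusted p = 2.46e-05) and fell by 2.42 ± 0.34 in regression. With normexp the rise was 1.92. Tk2, its mitochondrial counterpart (probe at chr8:107116423-107116482, mm9), stood at -2.56, -1.77 and -1.38 in control, at -1.65, -1.0, -1.77 and -1.49 in pre-tumor, at -1.47, -0.73, -0.94 and -2.02 in tumor and at -1.25, -1.42, -0.88 and -0.40 in regression. Its groups overlapped, and the tumor difference was 0.61 ± 0.40 (adjusted p = 0.346).

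Uck2, the uridine-cytidine kinase (probe at chr1:169059575-169059634, mm9), stood at -0.20, -0.68 and -0.26 in control, at -0.21, -0.55, -0.44 and -0.78 in pre-tumor, at 2.35, 2.23, 3.44 and 2.50 in tumor and at -1.09, -0.92, -0.93 and -0.18 in regression. The tumor arrays were far above the rest. The change was 3.01 ± 0.35 against control (adjusted p = 2.01e-05), 3.13 ± 0.33 against pre-tumor and -3.41 ± 0.33 in regression against tumor (adjusted p = 9.54e-06). With normexp the first was 1.89 and the last -2.01. The related gene Uckl1, for which pre-tumor 4 was left out as an outlier spot, differed by -0.71 ± 0.41 in tumor against control (adjusted p = 0.278).

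The deoxynucleoside kinases Dck, in the cytosol, and Dguok, in mitochondria, were not called in any comparison. Dck (probe at chr5:89857207-89857265, mm9) stood at -1.95, -0.32 and -0.75 in control, at -0.35, -0.40, -1.69 and -1.10 in pre-tumor, at -0.90, -0.71, -1.81 and -0.65 in tumor and at -1.69, -0.65, -1.10 and -0.61 in regression, with all 4 groups overlapping. Another Dck probe, well above background on 12 of 15 arrays, rose by 2.91 ± 0.51 in tumor against control (adjusted p = 0.00104 over probes), so the gene's probes disagree. Dguok (probe at chr6:83445921-83445980, mm9) stood at 0.30, 1.11 and 0.82 in control, at 0.54, 0.82, 0.61 and -0.04 in pre-tumor, at 0.13, 0.27, 0.46 and -0.12 in tumor and at 0.47, 0.99, 0.45 and 0.96 in regression. The tumor difference was -0.56 ± 0.33 (adjusted p = 0.279).

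The base salvage enzymes are Aprt, for adenine, and Hprt, for hypoxanthine and guanine. Aprt rose by 2.21 ± 0.42 in tumor against control (adjusted p = 0.00151) and fell by 1.57 ± 0.39 in regression, while its second probe was at 0.14 ± 0.59 and 0.41 ± 0.54. As the mean of both probes the rise was 1.17, and the difference in regression was -0.58 (adjusted p = 0.322), no longer called. Hprt differed by 0.98 ± 0.33 in tumor against control (adjusted p = 0.0523), with every tumor array above every control array, and was called under 9 of 28 alternative settings. It fell by 1.36 ± 0.30 in regression (adjusted p = 0.00553), a call that ended with median centring (adjusted p = 0.0542).

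Nucleotide kinases carry the monophosphates and diphosphates on to triphosphates. Nme1 and Nme2 encode closely related nucleoside diphosphate kinases and neighbour each other on chromosome 11. Nme1 (probe at chr11:93775246-93775305, mm9) stood at 1.45, 1.03 and 1.33 in control, at 1.10, 1.75, 2.49 and 0.87 in pre-tumor, at 3.11, 3.26, 3.11 and 3.24 in tumor and at 1.60, 1.20, 0.45 and 0.84 in regression. It rose by 1.91 ± 0.39 against control (adjusted p = 0.00267) and fell by 2.15 ± 0.36 in regression.

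Nme2 (probe at chr11:93765977-93766036, mm9) stood at 5.21, 5.19 and 5.37 in control, at 5.37, 5.42, 5.81 and 4.55 in pre-tumor, at 6.35, 5.95, 5.86 and 6.07 in tumor and at 5.11, 6.06, 4.77 and 4.63 in regression. It differed by 0.80 ± 0.38 in tumor against control (adjusted p = 0.18), although the groups did not overlap, and by -0.92 ± 0.35 in regression (adjusted p = 0.0949). How far a probe of either gene also takes up the other's RNA was not tested. Dtymk, which makes dTDP, rose by 1.76 ± 0.42. Guk1, the guanylate kinase, rose by 1.21 ± 0.35 (adjusted p = 0.0275), a call that ended without control 2 or 3 or tumor 1, 2 or 3 (adjusted p = 0.0521 to 0.112) and with slide as a block (1.26, adjusted p = 0.075). With normexp the change was 0.52. Cmpk1, which phosphorylates UMP and CMP, differed by -0.57 ± 0.34 (adjusted p = 0.287).

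**Figure D3:**
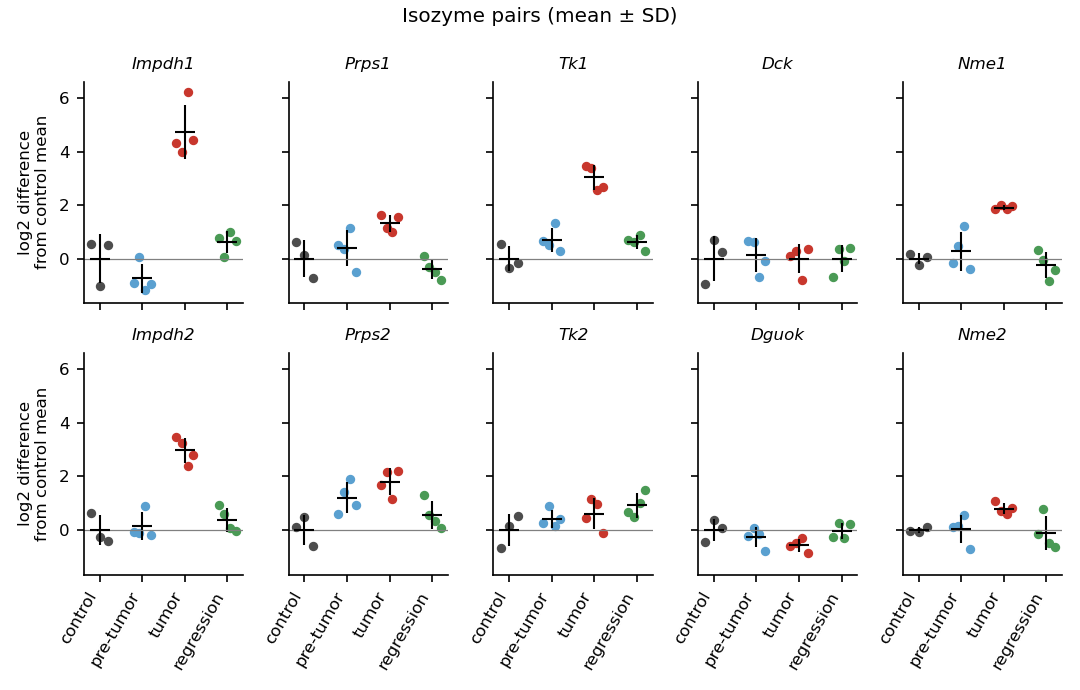
Level of 5 pairs of related enzymes on each array, as the log2 difference from the control mean of the same gene (points), with the group mean and SD (black). In Impdh1, Impdh2, Tk1 and Nme1 the tumor arrays lie apart from the other groups, while for Tk2, Dck and Dguok the groups overlap.

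De novo and salvage enzymes were then set side by side. In tumor against control 10 of 14 de novo enzymes and 3 of 8 salvage enzymes rose, with median changes of 2.41 and 0.80, a difference of 1.61. Without Atic 9 of 13 de novo enzymes rose (median 2.51). With background correction by normexp and quantile normalization this difference was 0.75, and without control 3 it was 1.12. It was 1.28 in the authors' deposited values and also 1.28 with the mean of passing probes. On the single tumor arrays the de novo median lay 2.20 to 2.63 above the control mean and the salvage median 0.61 to 1.09 above it, so the ranges did not overlap. Within the 3 slides that held both groups, the tumor minus control difference had a de novo median of 1.81 to 2.60 and a salvage median of 0.54 to 1.47. The gap between the medians was 1.80, 0.33 and 2.06 on these slides. The salvage set was not uniform, since Tk1 and Uck2, at 3.03 and 3.01, exceeded 12 of the 14 de novo enzymes. Without Tk1 the salvage median was 0.61. Because the 2 sets are short, chosen lists of genes, no test was made of the difference.

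**Figure D4:**
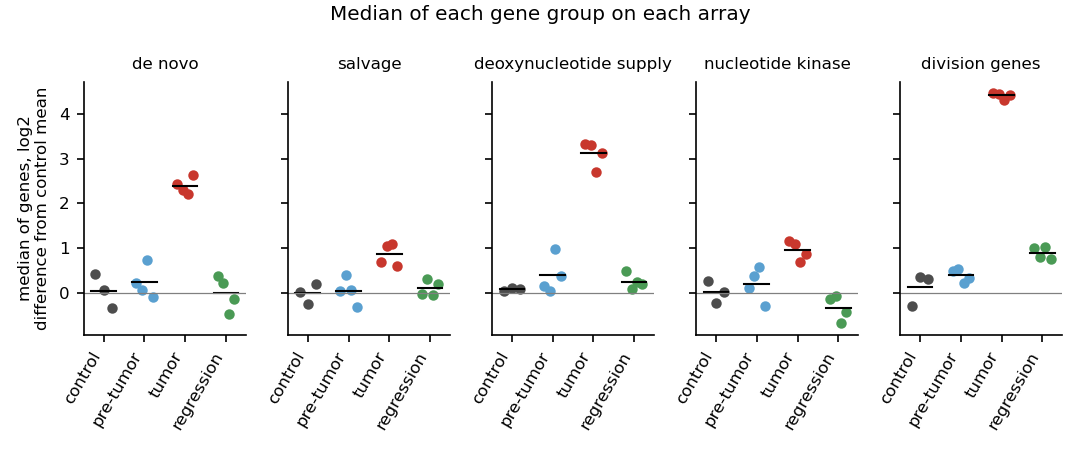
Median of each gene group on each array, as the log2 difference of its genes from their control means (points, with the mean over arrays as a line). Division genes are markers of dividing cells. Tumor arrays lie at 2.20 to 2.63 for de novo enzymes, 0.61 to 1.09 for salvage enzymes and 4.31 to 4.47 for division genes, and regression arrays at -0.48 to 0.37, -0.05 to 0.30 and 0.75 to 1.03.

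In pre-tumor liver 0 of the 35 genes were called against control, as were 0% of all genes in either direction, higher or lower. By an unadjusted p under 0.05, limma picked 1 of the 35, Prps2, and 507 of all 19207 genes. The measured change of Prps2 was 1.21 ± 0.43 (limma adjusted p = 0.9999, not called), with its 4 pre-tumor arrays above all 3 controls. With normexp the change was 0.057, and in the authors' deposited values 0.245. The median change over the 35 was 0.15 and the range -0.74 to 1.21. For Tyms, at 0.63 ± 0.35, the groups also did not overlap. How many of all genes show such a separation was not counted, so no signal is read from it. Pre-tumor 3 had a de novo median 0.74 above the control mean, and the other 3 pre-tumor arrays lay at -0.10 to 0.22.

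In the comparison of tumor with pre-tumor liver, the genes that rose included 10 of 14 de novo enzymes (median 1.87), 5 of 5 of deoxynucleotide supply (2.36) and 3 of 8 salvage enzymes (0.48). The 10 include Atic, which passed the filter only through the tumor arrays. Neither PRPP synthase was called, with Prps1 at 0.93 ± 0.39 (adjusted p = 0.114). Besides that of Cad, 3 of these calls ended when 1 array was left out. Ppat, at 1.84 ± 0.50, lost its call without tumor 1 (1.68, adjusted p = 0.0551) and as the mean of its passing probes (1.11, adjusted p = 0.137). Gart, at 1.56 ± 0.43, lost it without tumor 1 or pre-tumor 4 (1.41 and 1.44, adjusted p = 0.0501 to 0.0547). Dtymk, at 1.32 ± 0.38, lost it without any 1 of pre-tumor 1 and 4 and tumor 1, 2 and 4 (adjusted p = 0.0571 to 0.0808).

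When doxycycline had been back for 72 hours, 13 of 14 de novo enzymes, or 12 of 13 without Atic, were lower than in tumor (median over the 14, -2.30), the exception being Gmps at -0.92 ± 0.33 (adjusted p = 0.0757). All 5 genes of deoxynucleotide supply fell (median -2.79), as did both PRPP synthases, 3 of 5 kinases and 4 of 8 salvage enzymes (Aprt, Hprt, Tk1 and Uck2; median of the 8, -0.68). Within the 4 slides the de novo median was -2.91 to -1.81 and the salvage median -1.07 to -0.71. Paics, which had not been called in tumor against control, fell by 1.30 ± 0.34 (adjusted p = 0.0156), and without tumor 1 by 1.09 (adjusted p = 0.0649). With median centring Paics was not called either (adjusted p = 0.0662). Adss fell by 1.43 ± 0.45 (adjusted p = 0.0388), a call that ended without any 1 of 7 arrays, namely pre-tumor 1, tumor 1, 2 or 4 and regression 2, 3 or 4 (adjusted p = 0.0512 to 0.128) and with slide as a block (adjusted p = 0.0873). Dck, Dguok, Tk2, Uckl1, Cmpk1 and Samhd1 differed by 0.00 to 0.53, and none was called.

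Against control, the regression samples had 0 of the 35 genes higher and 1 lower, where 5.16% of all genes were higher and 3.16% lower. The median change over the 35 was 0.00057, and the de novo median was -0.48 to 0.37 from the control mean on the 4 arrays. By an unadjusted p under 0.05, limma picked 3 of the 35 and 4697 of all 19207 genes. The gene called lower was Atic, whose measured signal differed by -1.34 ± 0.37 (adjusted p = 0.0336). No array of either group was well above background for it, so no fold is given, and the arrays overlapped. That call ended without control 1 or 3 or regression 2, 3 or 4 (-1.31 to -1.14, adjusted p = 0.0796 to 0.143) and with slide as a block (-1.30, adjusted p = 0.0707), and it was not called under 12 of the 28 alternatives, besides 1 that reversed it.

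The rises and falls of the nucleotide genes went along with other shifts in the samples. Of 16 division genes 14 rose in tumor against control (median 4.45) and 14 fell in regression against tumor (median -3.55). In regression against control 5 of the 16 were still higher, namely Mki67, Top2a, Birc5, Mcm2 and Mcm3, by 1.43 to 2.16. Of the 35 nucleotide genes 0 were higher, against 5.16% of all genes, and the 2 lists were not tested against each other. Summed marker levels, on a linear scale relative to the 75th percentile, were 1417 to 1886 in control, 199 to 636 in tumor and 516 to 2147 in regression for 7 hepatocyte markers. For 7 macrophage markers they were 20.2 to 38.1, 35.5 to 42.0 and 128 to 245, and for 7 stellate and fibroblast markers 4.83 to 14.4, 16.8 to 25.6 and 50.8 to 181.

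Lists for other cell types moved to unlike degrees. The sums for 7 T and NK cell markers were 1.74 to 2.33, 1.66 to 2.11 and 5.46 to 11.9 in control, tumor and regression, and for 7 endothelial markers 5.38 to 11.1, 2.43 to 4.05 and 6.86 to 13.3. The sums for B cell markers overlapped, at 2.54 to 4.27, 2.35 to 4.24 and 2.26 to 4.42. Those for erythroid markers also did, at 47.1 to 426, 24.2 to 261 and 152 to 577. Bile duct sums were 2.32 to 2.96, 2.58 to 3.97 and 3.42 to 4.81, and neutrophil sums 2.40 to 12.3, 0.58 to 1.74 and 2.30 to 4.39. From tumor to regression 4 of 7 macrophage, 6 of 7 stellate, 5 of 7 T and NK cell and 5 of 7 endothelial markers rose. Gzma, of the T and NK list, and Lum, of the stellate list, were not well above background on any tumor array. The part that these cells or dividing cells play in the changes of the nucleotide genes was not tested.

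Other genes of nucleotide metabolism were read from lists that do not include the 35. Of 27 measured genes of synthesis, interconversion, transport and one-carbon supply, 6 rose and 3 fell in tumor against control (median 0.61), and 0 rose and 7 fell in regression against tumor. Over all genes 9.42% were called higher and 7% lower in tumor against control. In regression against tumor 8.54% were higher and 8.28% lower. Rrm2b was not well above background on enough arrays to be measured. The largest rises were those of Dctd, which deaminates dCMP to dUMP (3.93 ± 0.42), the nucleoside transporter Slc29a2 (2.99 ± 0.71) and Ctps2, a second CTP synthase (2.84 ± 0.34). The 3 that fell were Cmpk2, a mitochondrial kinase (-3.79 ± 0.62), Adssl1, a paralogue of Adss (-1.62 ± 0.45), and the adenosine kinase Adk (-1.34 ± 0.37). Ctps2 remained above control in regression (1.75 ± 0.34, adjusted p = 0.00347), as Ctps did not (0.30 ± 0.40, adjusted p = 0.69). The difference between them was not tested.

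Breakdown genes that were called mostly moved the other way in tumours. Of 22 genes 8 fell and 1 rose in tumor against control (median -0.71), against 7% lower and 9.42% higher over all genes. In regression against tumor 7 rose and 0 fell, against 8.54% higher and 8.28% lower over all genes. The largest falls were those of Upp2, a uridine phosphorylase (-6.54 ± 0.74), Uox, the urate oxidase (-6.28 ± 0.50), and Dpys, dihydropyrimidinase (-4.43 ± 0.39). Xdh, which makes uric acid, fell by 3.56 ± 0.78 and rose in regression by 2.89 ± 0.73. The gene that rose was Nt5e, the ecto-nucleotidase CD73 (2.19 ± 0.44), which was higher again in regression than in tumor (1.42 ± 0.41). Uox, Gda, Dpyd and Upb1 were still below control in regression, with Uox at -3.31 ± 0.50 (adjusted p = 0.00053). Most hepatocyte markers were lower in tumor than in control, and 4 of 7 rose in regression against tumor. Their summed levels overlapped between tumor (199 to 636) and regression (516 to 2147). The part of hepatocytes in these changes was not tested.

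**Figure D5:**
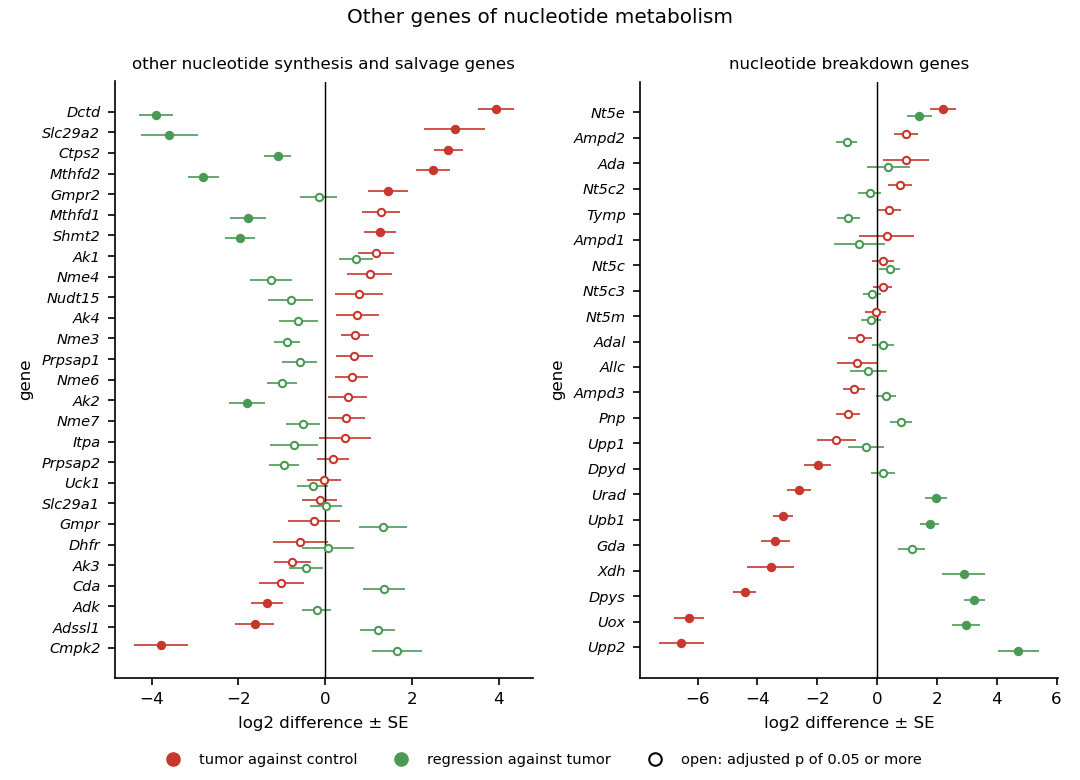
Log2 changes with SE for genes of nucleotide metabolism outside the 35, in tumor against control (red, 4 against 3 arrays) and regression against tumor (green, 4 against 4 arrays). Filled points are called. In the right panel 8 breakdown genes have filled red points left of 0 and 7 have filled green points right of 0.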

How the data were processed

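RNA from 15 liver and tumour samples was amplified, labelled with Cy3 and read on Agilent 4x44K mouse arrays, per the labels' protocols. Per the file headers, Feature Extraction 10.5.1.1 (probe positions in mm9) gave a background-subtracted intensity on a linear scale. The authors also deposited a table of log2 values whose normalization is not given in the sources used here. The values used are log2 of the processed signal minus each array's 75th percentile, without outlier spots and averaged over spots of a probe. A probe had to be well above background on at least 3 arrays, and a gene is its brightest passing probe. Probe symbols came from the deposited table, updated with RefSeq gene names. Limma 3.58.1 in R 4.3.3 fitted 1 model with 4 groups and 11 residual degrees of freedom, two-sided, with Benjamini-Hochberg adjustment over genes. The code was tested on simulated data. All 35 genes are accounted for. Full values are given for the largest called changes (8 in tumor against control, 4 elsewhere) and for 5 isozyme pairs. The members and lists were chosen with earlier results of these data known. Alternatives were other background corrections and normalizations (normexp with an offset of 50 used the median and background-median signals), the authors' table, other filters, blocks, variance models and probe rules, and leaving out arrays.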

Additional observations from a re-analysis of the deposited data

Results flagged for a closer look

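In 104 sets of 4 arrays (the 35 genes in 3 groups, less 1 set with a missing spot), 5 had an array whose gap to its nearest neighbour was beyond the critical value of Dixon's test. Chance gives about 1 in 20. Impdh2 was highest on pre-tumor 3, at 1.23, against 0.26 on the next array. Ctps was lowest on pre-tumor 4, at -1.61, against -0.61. On tumor 3, which had the lowest share of spots above background, Tyms was lowest at 0.64, against 1.58, and Dtymk at 1.56, against 2.92. Samhd1 was highest on regression 1, at -0.62, against -1.46.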

How the results depend on the processing

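The counts of called genes stayed within 1.5 times their value under the 28 alternatives, 15 of which left out 1 array, except for the 1 gene (Atic) lower in regression against control. That count fell to 0 with normexp, quantile normalization, median centring, the authors' table, slide as a block, only the 2 groups compared, the trended and robust variance and without the 4 arrays with the highest spike-in signal, was 2 with the replicate block and ran from 0 to 1 with 1 array left out. The genes that rose in tumor against control numbered 20 to 24 with 1 array left out, those that rose against pre-tumor 17 to 23 and those that fell in regression 23 to 27. In pre-tumor against control 0 were called and in regression against control 0 were higher under each alternative. The difference between the de novo and salvage medians in tumor against control was 1.61, moved to 0.748 with normexp and quantile normalization, and ran from 1.12 (without control 3) to 1.96 with 1 array left out. Of 72 called changes of single genes, 53 kept their call under every alternative and 19 lost it under at least 1. The fall of Atic in regression against control reversed to 0.011 with normexp and quantile normalization, and the cause was not tested. Slide as a block cost 7 of the 72 calls, those of Prps1 and Guk1 in tumor against control, Cad in tumor against pre-tumor, Adss, Prps2 and Cad in regression against tumor and Atic in regression against control. Normexp made 45 of the 72 changes smaller by over 1.5 times, while 18 were smaller in the authors' table, 8 as the mean of passing probes (and 3 larger) and 1 with quantile normalization. An alternative chosen after seeing the data, without the 4 arrays with the highest spike-in signal, cost 10 and left 15 genes higher in tumor against pre-tumor. Whether same-numbered arrays are paired was not settled. Their correlations were -0.46 to 0.61 (11 of 21 over 0.1), and those of same-slide arrays -0.54 to 0.20 (2 of 21). Over all genes, the replicate block raised the calls from 3155 to 4494 in tumor against control. In regression against control they went from 1599 to 3458, and in pre-tumor against control they stayed at 0. With this block 24 of the nucleotide genes rose in tumor against control, 21 rose against pre-tumor and 28 fell in regression. The de novo minus salvage difference was then 1.58. Signal over background limits Atic, Impdh1, Prps2, Dhodh and Rrm2 outside the tumours.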
